A study of Arabidopsis thaliana with 4 samples.

Results

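The plastid chromosome of Arabidopsis thaliana keeps a small set of protein-coding genes, and 69 of them were measured here in rosette leaves. They were taken as the genes of the chloroplast genome to which the platform's gene table maps a probe set that matches no other gene, with a mean signal of at least 100 over the 4 arrays. Of 22746 probe sets that are not controls, the table gives 13356 genes a probe set of their own. The 69 genes are among 78 plastid gene symbols in the gene table, and all 69 probe sets of this kind passed the signal limit, each the only one of its gene. A further 7 symbols had probe sets that match both copies of a duplicated gene, and the remaining symbols were not analysed here. Total RNA came from rosette leaves of 3-week-old plants grown under 16 h of light and 8 h of dark. The genotypes were the wild type, Col-0, and AAF-OX, a line that overexpresses AAF, each on 2 arrays. The promoter of the transgene, its background and the number of independent lines are not stated in the sources used here. The arrays were run as 2 sets, and each set was taken to hold the Col-0 and the AAF-OX array of 1 replicate number.

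Plastid-encoded genes descend from the cyanobacterial ancestor of the chloroplast. They code for the cores of both photosystems, parts of the cytochrome b6f complex, of the ATP synthase and of the NADH dehydrogenase-like (NDH) complex that cycles electrons around photosystem I, and for the large subunit of Rubisco. The rest of the set serves the plastid's own gene expression, with a bacterial-type RNA polymerase and ribosomal proteins, and is assisted by nuclear-encoded polymerases and sigma factors. Most plastid genes are transcribed in clusters that are cut into smaller RNAs, and poly(A) tails, which mark plastid RNA for decay, are short-lived there. The labels name a standard biotin labelling for the arrays and do not state the primer. The signals therefore compare 1 gene across arrays, and no gene's level was set against that of another.

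The line was checked first. AAF, taken here as locus AT1G66330, had signals of 759.9 in Col-0 and 7442 in AAF-OX in set 1, and 1337 and 7706 in set 2. The light-harvesting genes LHCB4.1 and LHCB4.2, leaf markers of the nuclear genome, were bright on every array, from 13590 to 31590. The third gene of that family in the table, LHCB4.3, had 3823 in Col-0 and 3818 in AAF-OX in set 1, and 859.9 and 865.3 in set 2. The root markers PYK10 (628.9 to 1974) and NAI2 (191.6 to 339.8) were not at 0, and no Rubisco small-subunit gene was named by the table. Every array was scaled by the authors to a trimmed mean of about 500 (500.04 to 500.05). The number of arrays, 2 in each group, limits the precision. The labels do not tell whether separate plants were grown for each set. A p-value here therefore reflects array-to-array spread, part of which may be technical. In bulk leaf RNA, fewer plastids, fewer green cells and less RNA in each plastid cannot be told apart.

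The genotype comparison asks whether plastid transcripts differ in leaves with raised AAF expression. No plastid-encoded gene passed the test in either direction. The median log2 difference (AAF-OX minus Col-0, on signal plus 50) was 0.06 over the 69 genes and -0.02 over the 13592 probe sets tested. The 69 differences ran from -0.49 for rpl16 to 0.47 for rps14, so 0 of them reached a size of 1, a 2-fold difference. Such a size was rare in general, with 45 of all 13592 probe sets tested. With genotype alone in the model, limma called 0 of 69 genes and 0% of all probe sets, so AAF itself did not pass, and 0 of the 69 had an unadjusted p under 0.05. When the sets entered the model as a block, limma called 1.55% of all probe sets, AAF among them (log2 difference 2.85, adjusted p = 2.53e-06), and again 0 of the 69 genes. Of the 69, 7 had an unadjusted p under 0.05 in that fit, as did 1495 of all 13592 probe sets, a like share, and limma's smallest adjusted p was 0.063. The intervals quoted below come from the fit with the block, which has 1 residual degree of freedom and borrows the rest of its error estimate across probe sets.

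**Figure D1:**
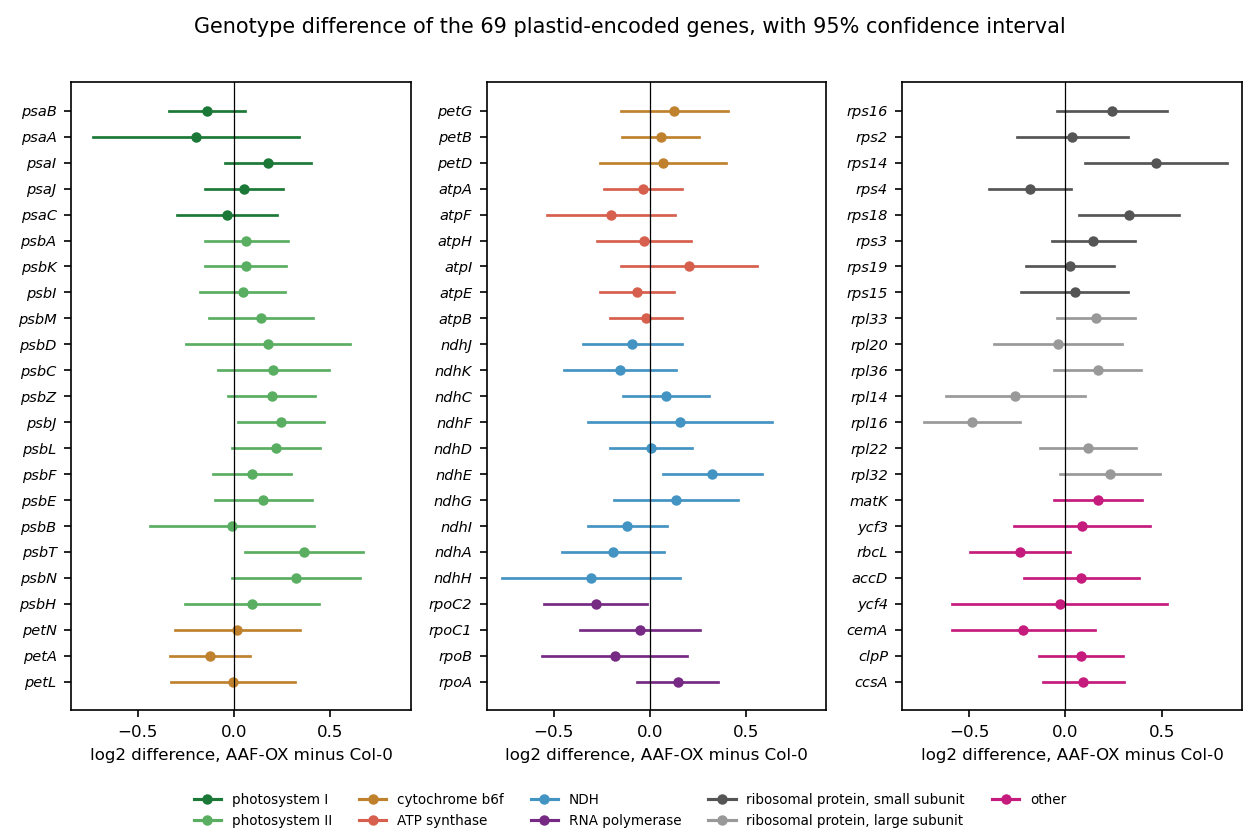
Log2 difference between AAF-OX and Col-0 (x axis, signal plus 50) for each of the 69 plastid-encoded genes, ordered by functional class and coloured by it. Points are the fitted differences and bars the 95% confidence intervals of limma's fit with the sets as a block (2 arrays per genotype). The points lie between -0.49 for rpl16 and 0.47 for rps14.

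The photosystem II genes had the highest class median, 0.15 over 15 genes, with 7 higher in AAF-OX in both sets and 0 lower in both. Over all 13592 probe sets tested, 3311 were higher in both sets and 4254 lower in both. psbA, which codes for the D1 reaction-centre protein, had signals of 4992 in Col-0 and 5123 in AAF-OX in set 1, and 8582 and 9140 in set 2. Its AAF-OX and Col-0 arrays overlapped, and its difference was 0.06 (95% interval -0.15 to 0.28). It counts among the 7 with small differences, 0.04 in set 1 and 0.09 in set 2. psbT, a small subunit, had the widest positive difference of the class at 0.36 (95% interval 0.06 to 0.67; limma's adjusted p = 0.328 with the block), with 0.09 in set 1 and 0.63 in set 2. psbD, for the D2 reaction-centre protein, stood at 0.71 in set 1 and -0.36 in set 2. psbB, for the core antenna protein CP47, had the lowest difference of the class (-0.01, 95% interval -0.44 to 0.41), a mean of opposite values in the sets.

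The 5 photosystem I genes had a median of -0.04. psaB, one of the paired reaction-centre proteins, had 17970 in Col-0 and 16590 in AAF-OX in set 1, and 17410 and 15530 in set 2. Both AAF-OX arrays lay below both Col-0 arrays, with a mean difference of -0.14 (95% interval -0.34 to 0.06). The small membrane subunit psaI was the reverse, with both AAF-OX arrays above both Col-0 arrays (0.17, 95% interval -0.05 to 0.40). Over all 69 genes such separate groups occurred 6 times upward (rps16, psaI, psbJ, psbL, rps18 and ccsA) and 2 times downward (psaB and atpB), where 7.86% and 10.9% of all probe sets tested had them.

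The cytochrome b6f genes (0.04, 6 genes) and the ATP synthase genes (-0.03, 6 genes) had medians close to 0. petB, for cytochrome b6, differed by 0.06 (95% interval -0.14 to 0.26), petG, a small subunit, by 0.13 (95% interval -0.15 to 0.41) and petA, for cytochrome f, by -0.12 (95% interval -0.33 to 0.08). atpB, for the catalytic beta subunit, had 32470 in Col-0 and 32120 in AAF-OX in set 1, and 32830 and 32180 in set 2. These 4 values are close together, at -0.02 (95% interval -0.21 to 0.16), but they stand near the highest signals of the arrays (34248 to 39669), and whether saturation narrows them was not tested. atpI, for the membrane subunit beside the rotor, had 0.20 (-0.11 in set 1 and 0.51 in set 2), and atpF, for the stator stalk, -0.20 (0.18 in set 1 and -0.59 in set 2).

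The 10 NDH genes had a median of -0.04, and 7 of them had opposite signs in the sets, where 44.3% of all probe sets tested had. Some of the 7 had a value near 0 in 1 set, such as ndhK with 0.01 in set 1 and -0.32 in set 2. ndhE, a membrane subunit, was the highest at 0.33 (95% interval 0.07 to 0.58; adjusted p = 0.28 with limma and the block). ndhH, of the hydrophilic arm, was the lowest at -0.30 (95% interval -0.77 to 0.16), with 0.23 in set 1 and -0.84 in set 2. ndhF, a membrane subunit, had -0.31 in set 1 and 0.62 in set 2.

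Among genes of the plastid's own expression machinery, the 4 RNA polymerase genes had the lowest median, -0.12. rpoC2, for the beta'' subunit, had 945.6 in Col-0 and 794.5 in AAF-OX in set 1, and 1389 and 1099 in set 2. Each AAF-OX array was below the Col-0 array of its set, with a mean difference of -0.28 (95% interval -0.55 to -0.02; limma's adjusted p = 0.414 with the block), while the groups overlapped. rpoB and rpoC1, for the beta and beta' subunits, were lower in AAF-OX in set 1 and higher in set 2. rpoA, for the alpha subunit, had 0.15 (95% interval -0.06 to 0.36).

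The 15 ribosomal protein genes had a median of 0.12 and held both ends of the range. rps14, of the small subunit, had 197.8 in Col-0 and 223.5 in AAF-OX in set 1, and 620.4 and 1113 in set 2. It was higher in AAF-OX in both sets, by 0.14 in set 1 and 0.80 in set 2, and the groups overlapped (mean 0.47, 95% interval 0.10 to 0.84; limma's adjusted p = 0.277 with the block). rpl16, of the large subunit, had 3220 in Col-0 and 2471 in AAF-OX in set 1, and 2379 and 1557 in set 2. It was lower in AAF-OX in both sets, -0.38 in set 1 and -0.60 in set 2, with 1 value of AAF-OX above 1 of Col-0. Its mean of -0.49 (95% interval -0.73 to -0.24) gave limma's adjusted p = 0.063 with the block, and it passed in 3 of the other settings run with the block. These were a pseudocount of 100 (adjusted p = 0.0462), quantile normalization (adjusted p = 0.0342) and median centring (adjusted p = 0.0273). Over all settings with the block its adjusted p in limma's test ran from 0.0273 to 0.254, the latter without an intensity trend. rps18 had 0.33 with separate groups (95% interval 0.07 to 0.59, limma's adjusted p = 0.28 with the block). rps4 had -0.18 (95% interval -0.40 to 0.03).

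The 8 other genes had a median of 0.08. rbcL, for the large subunit of Rubisco, had 964 in Col-0 and 814.4 in AAF-OX in set 1, and 1821 and 1531 in set 2. It was lower in AAF-OX within each set by nearly the same amount (-0.23 in set 1 and -0.24 in set 2), the lowest mean of these 8 (-0.24, 95% interval -0.50 to 0.02; limma's adjusted p = 0.519 with the block), while its groups overlapped. matK, for an intron maturase, was the highest (0.17, 95% interval -0.06 to 0.40). clpP, for the proteolytic subunit of the Clp protease, had 0.08 (95% interval -0.14 to 0.30), and accD, for a subunit of acetyl-CoA carboxylase in fatty acid synthesis, 0.08 (95% interval -0.22 to 0.38).

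The direction of the genotype difference often changed from set to set among the plastid genes. Of the 69, 22 were higher in AAF-OX in both sets, 9 lower in both and 38 opposite (55.1%, against 44.3% of all probe sets tested). Across the 69 genes the difference in set 1 correlated with that in set 2 at Pearson's r = -0.405 (Spearman's rho -0.311), where all 13592 probe sets gave r = 0.301 (rho 0.178). The sets share no array, and neighbouring plastid genes can share a transcript, so these correlations are descriptions. The widest reversals were in psaA and in ycf4, an assembly factor of photosystem I. psaA had 3093 in Col-0 and 4578 in AAF-OX in set 1, and 4275 and 2181 in set 2. AAF-OX was above Col-0 in set 1 and the lowest of the 4 arrays in set 2. ycf4 had 4179 in Col-0 and 7182 in AAF-OX in set 1, and 5074 and 2822 in set 2, in the same order. cemA, for a protein of the inner envelope and the next gene after ycf4, had 0.26 in set 1 and -0.70 in set 2. petA, the gene after cemA, had -0.04 in set 1 and -0.21 in set 2.

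**Figure D2:**
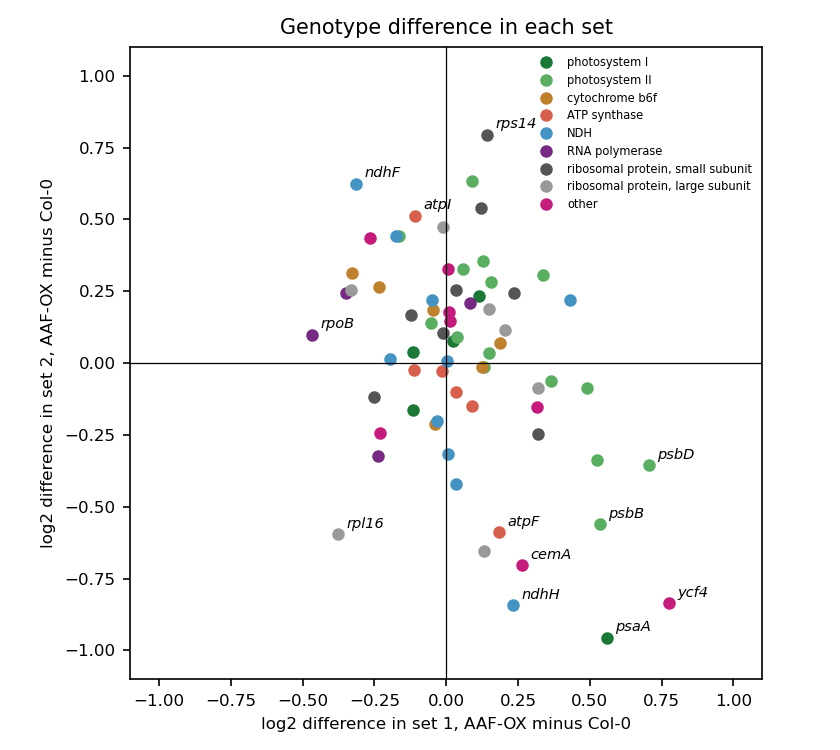
Log2 difference between AAF-OX and Col-0 in set 1 (x axis) and in set 2 (y axis), 1 point per plastid-encoded gene, coloured by functional class. The lower right part holds psaA (0.56 and -0.96), ycf4 (0.77 and -0.84) and psbB (0.53 and -0.56), and 38 of the 69 points have opposite signs in the sets.

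Most of the 69 plastid genes were called between the array sets, mainly upward in set 2. Probe sets that match duplicated plastid genes were not counted here, and went mostly the other way where called (given at the end). Below, rose and fell stand for set 2 against set 1 and imply no order in time. With genotype in the model, limma called 47 of the 69 genes between sets at an adjusted p under 0.05 (68.1%), 40 higher and 7 lower in set 2. Each set was run once, with 1 array per genotype, and this fit also has 1 residual degree of freedom. Its p-values therefore rest on how alike the set difference was in the genotypes, and do not measure spread between repeated sets. Over all probe sets tested the share was 39.4%, with 17.3% higher and 22% lower. The median difference (set 2 minus set 1) was 0.42 for the 69 genes and -0.05 for all probe sets, and the plastid genes ran from -0.78 for psbK to 1.76 for rps14. It was 0.45 within Col-0 and 0.34 within AAF-OX. Bright probe sets were called more often: among those with a mean signal of at least 1000, a limit chosen after the values were seen, 53.4% were called and 27.6% were higher, against 65.5% and 52.7% of the 55 plastid genes at that level. Both set 2 arrays lay above both set 1 arrays in 46 of the 69 genes (29.8% of all probe sets) and below them in 7 (38.7% of all probe sets). What differed between the sets is not stated in the sources used here.

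Other measures moved with the sets as well. The clock gene GI, whose transcript peaks late in the day and which was picked after its values were seen, had 111.6 in Col-0 and 93.83 in AAF-OX in set 1, and 1937 and 1522 in set 2. It was higher in set 2 in both genotypes. The leaf markers went both ways, with set differences of 0.27 for LHCB4.1, 0.82 for LHCB4.2 and -2.08 for LHCB4.3 (limma's adjusted p = 0.0277, 7.95e-05 and 9.33e-08). Of the root markers, PYK10 had 1075 in Col-0 and 628.9 in AAF-OX in set 1, and 1974 and 1527 in set 2. Its set difference of 1.03 (limma's adjusted p = 7.61e-05) was above the plastid median, while NAI2 had -0.11 (adjusted p = 0.617). The cytosolic rRNA control had 864 and 469.1 in set 1 and 186.5 and 152.9 in set 2. The ratio of 3′ to 5′ signal, a measure of RNA integrity and of the reach of labelling, was 2.93 and 2.68 for actin in set 1 and 2.79 and 2.97 in set 2. For GAPDH it was 1.03 and 0.964, then 1.06 and 1.16, and for ubiquitin 1.25 and 1.15, then 1.07 and 1.28, Col-0 before AAF-OX each time. The ratios of actin and ubiquitin overlapped between sets, and those of GAPDH were slightly higher in set 2. The part of daytime, other tissue, rRNA or labelling in the set difference of the plastid genes was not tested.

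**Figure D3:**
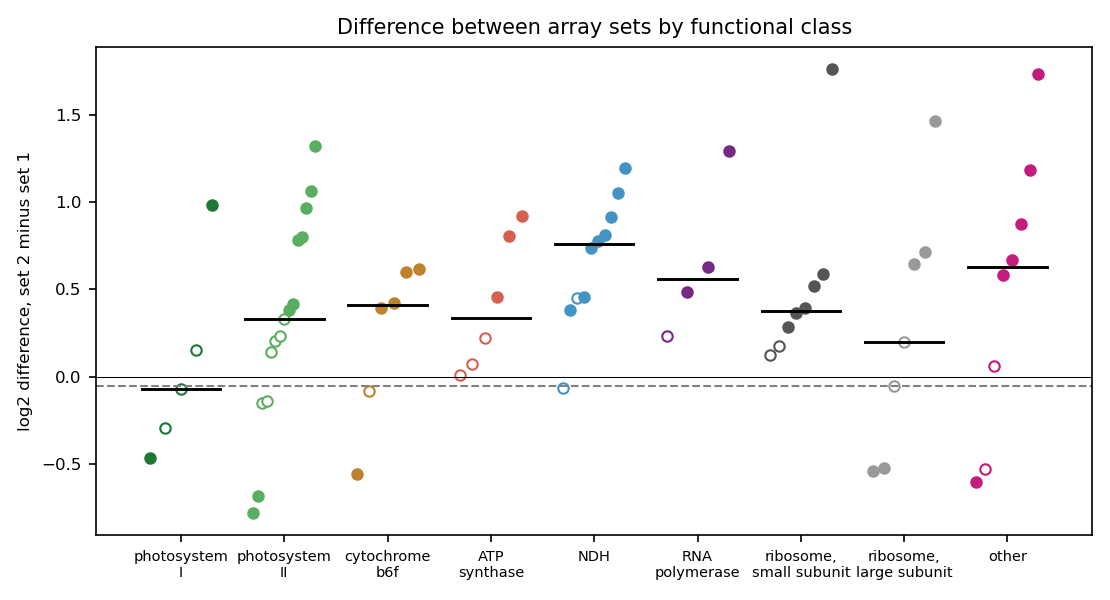
Log2 difference between set 2 and set 1 (y axis) of each plastid-encoded gene by functional class (x axis). Filled points passed limma's threshold and open points did not, black bars are class medians, and the dashed line is the median of all probe sets tested (-0.05). The NDH genes have the highest median (0.76) and the photosystem I genes the lowest (-0.07).

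The NDH genes had the highest class median of the set difference, with 8 of 10 higher in set 2, 0 lower and a median of 0.76. ndhE had 969.2 in Col-0 and 1324 in AAF-OX in set 1, and 2462 and 2873 in set 2. Both set 2 arrays were above both set 1 arrays, 2.29-fold on average (1.20 ± 0.12, SE; limma's adjusted p = 1.1e-05). ndhF had 148 in Col-0 and 109.4 in AAF-OX in set 1, and 220 and 366.4 in set 2, and rose by 0.92 (limma's adjusted p = 0.00588). ndhC and ndhH did not pass, at -0.07 and 0.45.

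The RNA polymerase genes had 3 of 4 higher in set 2 (median 0.56). rpoC1 had 1289 in Col-0 and 1002 in AAF-OX in set 1, and 2622 and 3117 in set 2, 2.45-fold higher in set 2 (1.29 ± 0.14, SE; limma's adjusted p = 2.65e-05). rpoB rose by 0.63 and rpoC2 by 0.49 (limma's adjusted p = 0.0131 and 0.00753), and rpoA, at 0.23, did not pass. rpoA lies in the ribosomal protein cluster, apart from the cluster that holds the rest.

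Of the ribosomal protein genes, 6 of 8 for the small subunit and 3 of 7 for the large subunit were higher in set 2, and 2 for the large subunit were lower. rps14, with the values given above, rose 3.39-fold (1.76 ± 0.17, SE; limma's adjusted p = 8.87e-06), the largest rise of the 69 genes on this scale. rpl20 had 525.7 in Col-0 and 407.2 in AAF-OX in set 1, and 1245 and 1496 in set 2, 2.76-fold higher (1.46 ± 0.15, SE; limma's adjusted p = 1.75e-05). rpl16 fell by 0.54 (limma's adjusted p = 0.00279) and rpl14 by 0.52 (adjusted p = 0.0247), with each of the set 2 arrays below each of the set 1 arrays. rps4 rose by 0.28 (limma's adjusted p = 0.0377). rpl32 (-0.06) and rps18 (0.13) did not pass.

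**Figure D4:**
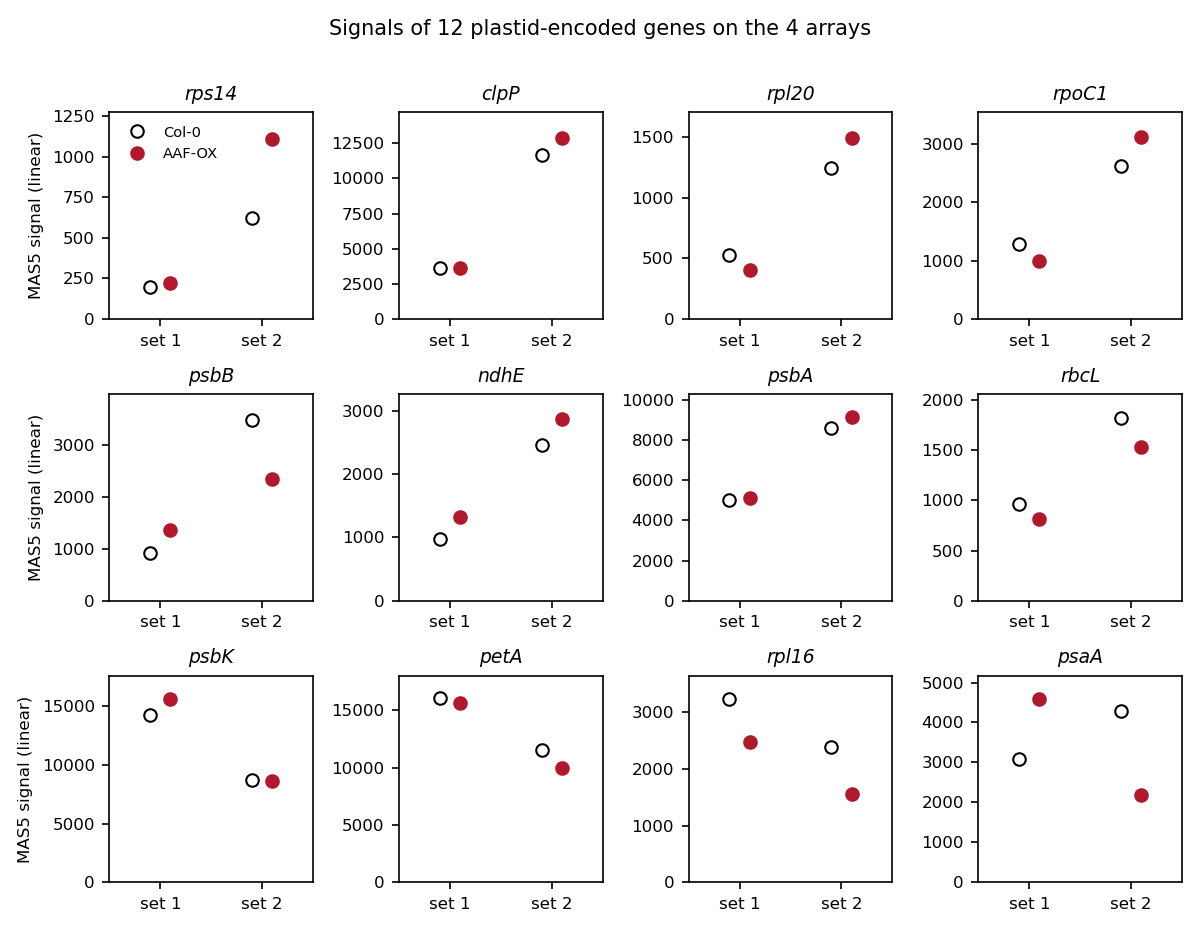
MAS5 signal (y axis, linear, from 0) of 12 plastid-encoded genes on the 4 arrays, with Col-0 as open and AAF-OX as red points in set 1 and set 2. Both set 2 arrays lie above both set 1 arrays for the genes from rps14 to rbcL, and below them for psbK, petA and rpl16, while psaA has AAF-OX above Col-0 in set 1 and below it in set 2.

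The photosystems were mixed. Of 15 photosystem II genes, 7 were higher in set 2 and 2 lower (median 0.33). psbA rose 1.74-fold (0.80 ± 0.10, SE; limma's adjusted p = 5.92e-05), with near-identical rises in Col-0 (0.78) and AAF-OX (0.83). psbB had 922.7 in Col-0 and 1359 in AAF-OX in set 1, and 3498 and 2356 in set 2, and rose 2.5-fold (1.32 ± 0.20, SE; limma's adjusted p = 0.000248), by 1.87 in Col-0 and 0.77 in AAF-OX. psbD rose by 0.78 (limma's adjusted p = 0.00739) and psbT by 0.97 (adjusted p = 0.00021). psbK, a small subunit, had 14280 in Col-0 and 15660 in AAF-OX in set 1, and 8723 and 8635 in set 2. Both set 2 arrays were lower, 1.72-fold on average (-0.78 ± 0.10, SE; limma's adjusted p = 5.95e-05), and its neighbour psbI was also lower (-0.69 ± 0.10, SE; limma's adjusted p = 0.000226). In photosystem I, psaC, which carries iron-sulfur clusters, rose by 0.99 (limma's adjusted p = 5.51e-05) and psaJ, a small subunit, fell by 0.47 (adjusted p = 0.0018). psaA, psaB and psaI did not pass, at -0.30, -0.07 and 0.15.

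Of the 6 cytochrome b6f genes, 4 were higher in set 2 and 1 lower. petD, for subunit IV, rose by 0.62, petB by 0.42 and petG by 0.40 (limma's adjusted p = 0.00632, 0.00337 and 0.0279). petA had 16050 in Col-0 and 15640 in AAF-OX in set 1, and 11550 and 9960 in set 2, lower in both set 2 arrays (-0.56 ± 0.10, SE; limma's adjusted p = 0.000664). Of the ATP synthase genes, 3 of 6 were higher. They were atpH, for the rotor ring (0.92 ± 0.11, SE; limma's adjusted p = 5.46e-05), atpI (0.80) and atpF (0.45). atpB, at 0.01, did not pass. Among the other genes, 5 of 8 were higher and 1 lower. clpP had 3624 in Col-0 and 3655 in AAF-OX in set 1, and 11630 and 12890 in set 2. Its genotypes differed little within each set, and it rose 3.33-fold (1.74 ± 0.10, SE; limma's adjusted p = 1.6e-07), the smallest adjusted p of the 69. rbcL rose 1.84-fold (0.88 ± 0.12, SE; limma's adjusted p = 0.000127), by 0.88 in Col-0 and 0.87 in AAF-OX. matK (0.58) and accD (0.67) rose as well (limma's adjusted p = 0.000964 and 0.00226), and cemA fell by 0.60 (adjusted p = 0.0145).

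The genes were also set out by 13 clusters known to be transcribed together in plants, listed from textbook knowledge. In the psbB cluster, whose members belong to different complexes, 5 of 5 measured genes (psbB, psbT, psbH, petB and petD) were higher in set 2, by 0.42 to 1.32. psbN, read from the other strand between psbT and psbH, had 0.33 and did not pass (limma's adjusted p = 0.11). In the cluster of ndhH, ndhA, ndhI, ndhG, ndhE, psaC and ndhD, 6 of 7 were higher, psaC of photosystem I among them, and the range was 0.38 to 1.20. The atpI, atpH, atpF and atpA cluster had 3 of 4 higher (0.22 to 0.92), and rpoB, rpoC1 and rpoC2 were 3 of 3. The psbK and psbI pair went the other way, with 2 of 2 lower, and atpB and atpE had 0 of 2 called. Like atpB, atpE was bright (25780 to 28400), and whether saturation narrows their differences was not tested. Partly called, with 0 lower, were psbD, psbC and psbZ (2 of 3 higher, 0.14 to 0.78) and ndhC, ndhK and ndhJ (2 of 3, -0.07 to 0.78). In the cluster of psbE, psbF, psbL and psbJ, 1 of 4 was higher and 0 lower (-0.14 to 0.42).

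The remaining clusters held positive and negative differences, not all of them called. In the ribosomal protein cluster that ends with rpoA, 4 of 7 measured genes were higher and 2 lower, and the lower ones, rpl16 and rpl14, lie next to each other between rps3 (0.36) and rpl36 (0.65) in the order of measured genes. In the cluster of psaA, psaB and rps14, rps14 rose while psaA and psaB did not pass, a range of -0.30 to 1.76. In that of psaI, ycf4, cemA and petA, 2 of 4 fell, and psaI had 0.15. In the cluster of petL, petG, psaJ, rpl33 and rps18, petG rose and psaJ fell. Each gene has 1 probe set, so a difference between neighbours is also a difference between probe sets, and the part of the probes in it was not tested. Across the 69 genes, the set difference within Col-0 correlated with that within AAF-OX at r = 0.657 (rho 0.678), where all 13592 probe sets gave 0.856 (rho 0.789). The 2 values share no array. Of the 69 genes, 50 were higher in set 2 in both genotypes, 9 lower in both and 10 opposite. Over all 13592 probe sets tested, 4794 were higher in both genotypes and 6043 lower in both. The 0.856 is also the value by which the replicate numbers were taken as sets, so it is a description.

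**Figure D5:**
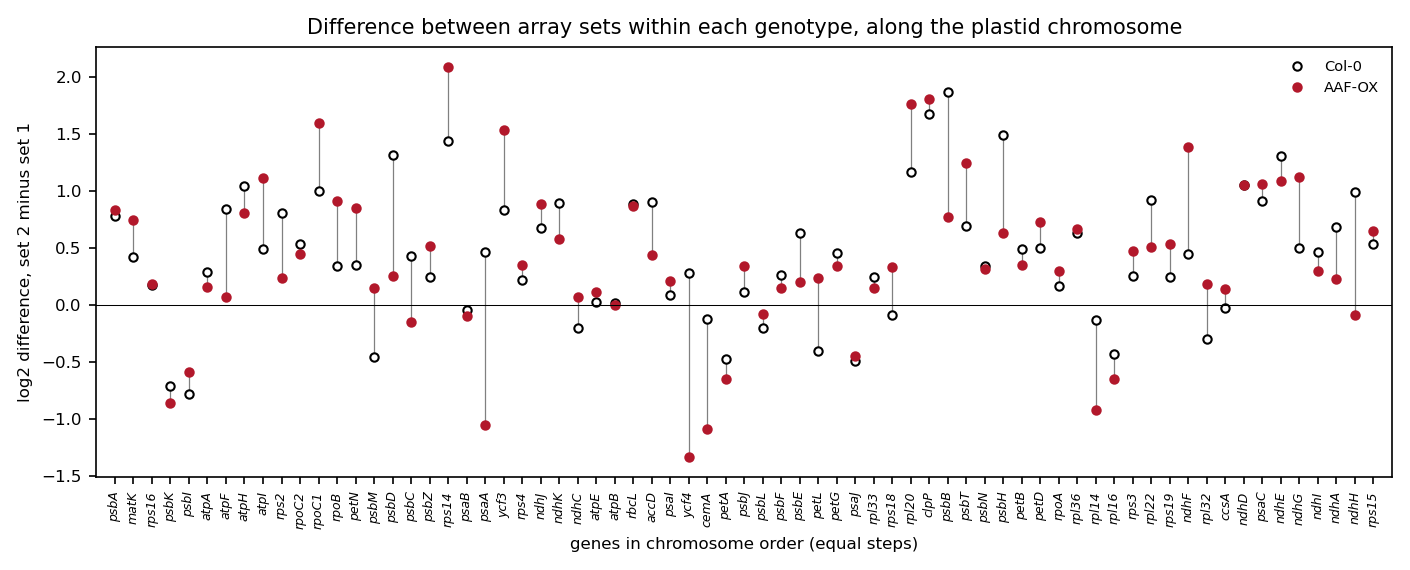
Log2 difference between set 2 and set 1 (y axis) within Col-0 (open points) and within AAF-OX (red points), for the 69 genes in their order along the plastid chromosome in equal steps (x axis). Grey lines join the 2 values of a gene. High values lie, among others, at rpoC1, rps14 and ycf3, and at rpl20, clpP, psbB, psbT and psbH, with a lower one at psbN. They also lie from ndhD to ndhG. The lowest AAF-OX values among the 69 genes include those of ycf4, cemA and psaA.

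Nuclear-encoded partners were taken from 5 lists of 50 genes (sigma factors and phage-type polymerases, polymerase-associated proteins, nuclear NDH subunits, nuclear subunits of the ATP synthase, cytochrome b6f complex and Rubisco, and RNA processing factors). Only 4 of the 50 were named by the probe table and tested, 3 of the NDH list and 1 of the ATP synthase list, so these lists say little. None passed limma's threshold between genotypes or between sets (0 of 4 with and without the block). NDHN had 2701 in Col-0 and 2493 in AAF-OX in set 1, and 2233 and 2054 in set 2, a set difference of -0.27 (limma's adjusted p = 0.0679), with set 2 below set 1 on every array. NDHL had -0.22 and NDHS 0.27, where 8 of the 10 plastid NDH genes rose. ATPC1, for the gamma subunit of the ATP synthase, had 0.05 between sets and 0.00 between genotypes.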

How the data were processed

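Transcripts of leaves were measured in both genotypes, with groups and replicate numbers from the sample titles. The table deposited by the authors holds linear intensity values. The submitters' processing notes name MAS5 without a version, and the values show each array scaled by the authors to a 2%-trimmed mean near 500. The files used here carry no detection calls. Of 22810 probe sets, 64 controls were left out, and 13592 with a mean signal of at least 100 were tested as log2(signal + 50), which understates changes of dim probe sets. Genes were named by gene ID through the TAIR10.1 gene table. There plastid loci carry other tags than ATCG numbers, so the plastid chromosome column chose the members. No coordinates or sequences are given.

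The tests used limma 3.58.1 (R 4.3.3), with a trend of variance on intensity in eBayes. They were two-sided, and p-values were adjusted by Benjamini-Hochberg over all 13592 probe sets (threshold 0.05). The planned genotype fit has no block, and the replicate number as a block is an alternative. The set fit has genotype as a term. The series text speaks of 2 sets of arrays, and same-numbered arrays deviated together from their group means (r = 0.856), so the number was taken as the set. With 2 arrays per group, this r is the same quantity as the correlation of the set difference between genotypes over all probe sets. That correlation is thus no separate evidence for the sets. Fold values, too, refer to signal plus 50. The fits were tested on simulated data.

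By the rule for named genes, the text names, per class, the highest and lowest of either contrast, AAF, a list of well-known plastid genes, and the top genes of the nuclear lists. Further genes named as neighbours, as separate groups, as reversals or for their place in a cluster were chosen after their values were seen. Members, lists and classes were chosen with earlier results of these data known. Alternatives were the pseudocount, filter, scaling, trend, averaging of probe sets, block, genotype term and each array left out.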

Additional observations from a re-analysis of the deposited data

Results flagged for a closer look

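In 3 plastid genes the AAF-OX minus Col-0 difference was at least 0.5 in size in both sets and of opposite sign, a limit chosen after the data were seen. The difference between the sets was not tested, since each set holds 1 array per genotype. psaA had log2 differences of 0.56 in set 1 and -0.96 in set 2. ycf4 had 0.77 and -0.84. psbB had 0.53 and -0.56. Groups of 2 arrays are too small to look for single outlying arrays.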

How the results depend on the processing

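The replicate numbers were taken to mark the sets, and under that reading the replicate block is a paired fit. It took the calls over all probe sets from 0 to 210 and left the plastid genes at 0. With the block and another setting, the calls over all probe sets were 76 (pseudocount 1), 276 (pseudocount 100), 291 (quantile normalization), 18 (no filter), 233 (filter at 250), 21 (no trend), 373 (median centring) and 216 (mean of a gene's probe sets). The plastid count became 1, that of rpl16, with the pseudocount of 100, quantile normalization and median centring. Without the block every setting called 0. The median genotype difference of the plastid genes, 0.06, ran from -0.17 to 0.29 with 1 array left out, where the set difference mixes in. It was negative without Col-0 replicate 1 and AAF-OX replicate 2 (-0.14), and 0.05 to 0.08 under all other settings.

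Between sets, the 47 plastid calls were 34 (no filter) to 54 (median centring), and their median 0.33 (quantile normalization) to 0.50 (median centring). Without a genotype term the lower calls went from 7 to 4. Leaving out 1 array leaves no error for that fit, so it gave no test. Its median was then that of the genotype with both arrays, 0.34 for AAF-OX and 0.45 for Col-0. These repeat the values within each genotype given above and are no separate check. Of the named members, atpF, rps4, petG and cemA lost their set call in at least 3 alternatives, psbD, petB, rpoB, rpoC2 and rpl16 in 1 or 2. The causes of these changes were not tested. Signals near the top of the scale limit what atpB, and perhaps atpE, can show.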

Other observations

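The probe sets that match both copies of duplicated plastid genes, 8 in all, were outside the 69 genes and are given without names. All 8 were tested, and 0 were called between genotypes (limma with the sets as a block), with log2 differences of -0.09 to 0.19. Between sets 5 of the 8 were called by limma, where 39.4% of all probe sets tested were, and they reached lower than any of the 69 genes. The lowest had signals of 4107 in Col-0 and 4534 in AAF-OX in set 1, and 1618 and 1277 in set 2 (log2 -1.55). Another had 13830 and 14090 in set 1, and 6245 and 5469 in set 2 (log2 -1.25). The remaining called probe sets had -1.07, -0.40 and, as the highest of the 8, 0.58. Of those called, only this last was higher in set 2, unlike the 69 genes, which were mostly higher.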
